A study of Mus musculus with 60 samples.

Results

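Whether the loss of regulatory T (Treg) cells acts differently on brown and on subcutaneous fat was read here from a difference of differences. For each gene, the log2 ratio of DTR+ over DTR- libraries in brown adipose tissue (BAT) was taken, and the same ratio in subcutaneous adipose tissue (SAT) was subtracted from it. The libraries are the 16 of the 60 in the series whose titles carry D4, chosen by those titles and split into 4 groups of 4: BAT DTR-, BAT DTR+, SAT DTR- and SAT DTR+. All 16 are RNA sequencing libraries of whole tissue from 8-week-old male mice of the strain B6.Foxp3.DTR, and the treatment label of all 4 groups is DT, taken to be diphtheria toxin. DTR+ mice carry a receptor for that toxin under the control of Foxp3, so that the toxin can kill Foxp3-expressing cells, and DTR- mice lack the transgene and received DT as well. Whether D4 is a day or the name of an experiment is not stated. No label ties the replicates to separate animals. The p-values below therefore rest on sample-to-sample spread that could be technical. In whole tissue, fewer cells of a type and less RNA per cell cannot be told apart.

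Treg cells are CD4 T cells that depend on the transcription factor Foxp3 and restrain other immune cells. When they are removed, T cells and natural killer cells can release interferon gamma, and tissue cells answer interferons through STAT and IRF transcription factors that switch on antiviral, antigen-presenting and chemokine genes. Brown fat burns fatty acids to make heat through the mitochondrial protein Ucp1, and subcutaneous fat mainly stores triglyceride and holds more resident immune cells.

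Totals ran from 3616464 to 9011136 counts per library, and 13502 genes had enough counts to be tested. Foxp3 itself was too rare in whole tissue to check the depletion: it had 2 counts over the 4 BAT DTR- libraries and 0 over the 4 BAT DTR+ libraries, and a count of 0 allows up to 3. In SAT it had 31 counts over the DTR- libraries, 29 of them in replicate 3, and 3 counts over the DTR+ libraries. The depot labels were borne out by Ucp1, which stood between 2624 and 6916 CPM (the count of a gene relative to the scaled total of its library) in the 8 BAT libraries and between 0.841 and 70.8 CPM in the 8 SAT libraries. A pair of SAT libraries stood apart from their groups. SAT DTR- replicate 3 had 249 CPM summed over genes of naive T cells and lymph nodes, against 24.6 to 33.8 in the other SAT DTR- libraries, and SAT DTR+ replicate 3 had 3026 CPM of skeletal muscle genes, against 84.0 to 137 in the other SAT DTR+ libraries. Muscle genes also varied within BAT, from 161 CPM in DTR+ replicate 4 to 7111 CPM in DTR+ replicate 1.

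The response to the transgene differed between the depots for 555 of 13502 genes (4.11% of those tested) at an edgeR adjusted p under 0.05. Of these, 413 (3.06%) had a positive interaction, meaning that the DTR+ over DTR- ratio was higher in BAT than in SAT, and 142 (1.05%) had a negative one. The positive interactions were the larger, with a median of 1.87 on the log2 scale, while 119 of the 142 negative ones were smaller than a log2 of 1. With library totals as the only scaling, 1053 genes were positive and 20 negative, and that scaling moved the median over all genes by 0.29 on the log2 scale, so the count of negative calls depends on the scaling.

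The following counts describe the levels behind the calls and support nothing further, since the genes were chosen on the same values. In DTR- mice 400 of the 413 positive genes were lower in BAT than in SAT (all genes tested, 53.2%), with a median log2 ratio of BAT over SAT of -2.40. In DTR+ mice the median ratio was -0.27, and 372 of the 413 lay closer to the SAT level than in DTR- mice (all genes tested, 62.4%). The log2 ratio of DTR+ over DTR- was above 0 in both depots for 165 of these genes (all genes tested, 27.0%) and above 0 in BAT but below 0 in SAT for 247 (all genes tested, 23.3%), counted by sign with no test of either depot. The 4 responses of BAT (each DTR+ library over the mean of DTR-) did not overlap those of SAT for 406 of the 413 positive genes, against 11.9% of all genes tested in that direction, and for 142 of the 142 negative genes, against 10.1%. The calls rest on the same responses, so nothing is read from that count. On the linear scale, the difference of differences of mean CPM had the same sign for 404 of the 413 (97.8%), beside 91.6% of all genes tested. Genes with a negative interaction had a median log2 ratio of BAT over SAT of 1.02 in DTR- mice and 0.28 in DTR+ mice. The sign on the linear scale was the same for 141 of these 142 (99.3%).

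**Figure D1:**
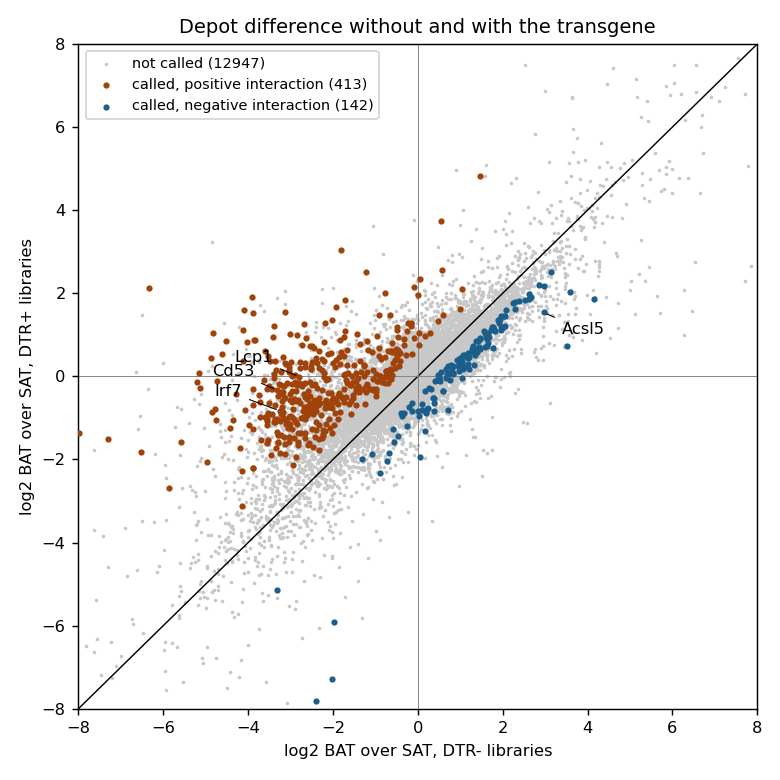
Each point is a gene; the x axis is its log2 ratio of BAT over SAT in DTR- libraries and the y axis the same ratio in DTR+ libraries, with called genes coloured and the line marking an equal ratio. The 413 positive genes lie above the line, mostly at negative x values and near 0 on the y axis, and the 142 negative genes lie below it; 33 genes, 3 of them called, fall beyond the axis limits.

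Irf7, the transcription factor that amplifies the type I interferon response, lies on chromosome 7 (141262706 to 141266481, mm10). In BAT its level was 8.57, 10.4, 15.4 and 9.12 CPM in the DTR- libraries and 53.0, 86.3, 91.5 and 112 CPM in the DTR+ libraries. In SAT it was already 98.1, 121, 77.8 and 122 CPM without the transgene and reached 145, 189, 123 and 152 CPM with it. The BAT DTR- libraries thus lay below every other library, and the BAT DTR+ libraries overlapped the SAT DTR- ones. The interaction of Irf7 was 2.42 ± 0.32 (log2, SE, edgeR adjusted p = 0.0011).

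Across the list of type I interferon genes, 19 of 30 passed the test with a positive interaction (all genes tested, 3.06%) and 0 with a negative one (all genes tested, 1.05%). Their median was 1.43, beside -0.00 over all 13502 genes, and all 30 lay above 0. The shares of 3.06% and 1.05% stand beside every list below, and a list count near them is not read as a result. The lists were written with earlier results of these data known. A count above these shares is therefore a description and carries no test. Zbp1, a sensor of Z-form nucleic acids that can trigger cell death, had few counts in BAT without the transgene. It stood at 0.892, 2.04, 2.03 and 2.05 CPM in BAT DTR- and at 14.8, 38.3, 43.9 and 56.8 CPM in BAT DTR+, while SAT had 19.6 to 36.3 CPM without and 55.6 to 72.5 CPM with the transgene. Its interaction was 3.21 ± 0.48 (adjusted p = 0.0020). Usp18, the protease that removes ISG15 from proteins and dampens interferon receptor signalling, had an interaction of 2.05 ± 0.34 (adjusted p = 0.0027).

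Rsad2, which encodes the antiviral enzyme viperin, differed from those genes in its starting point (chromosome 12, 26442746 to 26456452). In DTR- mice its level was much alike in the depots, with 24.1, 23.9, 25.8 and 24.4 CPM in BAT and 24.1, 28.0, 24.0 and 34.4 CPM in SAT. In DTR+ mice BAT had 67.2, 106, 126 and 134 CPM and SAT 40.4, 57.9, 42.1 and 39.3 CPM, so that each BAT DTR+ library lay above every SAT DTR+ library. The interaction was 1.44 ± 0.26 (adjusted p = 0.0046). The list count fell to between 10 and 12 when 1 of 12 libraries was left out, with the lowest value of 10 without BAT DTR- replicate 4, BAT DTR+ replicate 2, 3 or 4, or SAT DTR- replicate 1 or 4, and it rose to 25 at most. The calls of Irf7, Zbp1, Usp18 and Rsad2 held in each of the 24 alternatives computed.

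**Figure D2:**
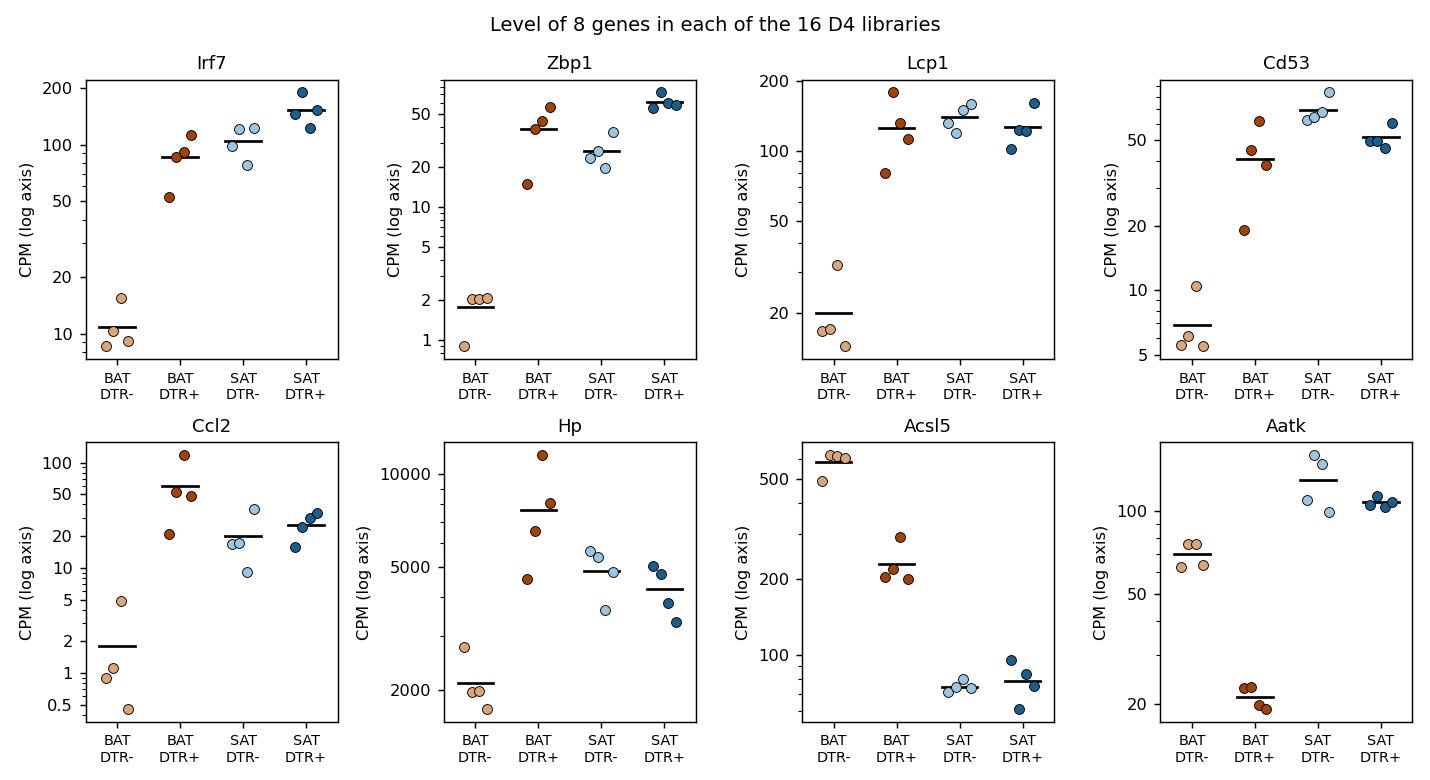
CPM of 8 genes on a log axis, with 1 point per library, 4 libraries per group, and a bar at the group mean. For Irf7, Zbp1, Lcp1, Cd53, Ccl2 and Hp the BAT DTR- libraries lie below those of BAT DTR+; for Acsl5 and Aatk they lie above them.

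Of genes that answer interferon gamma, 11 of 29 were called with a positive interaction and 0 with a negative one. The median was 1.45, with 27 members above 0 and 2 below. Irf1, a transcription factor induced early by interferons, stood at 36.8, 32.3, 47.6 and 28.5 CPM in BAT DTR- and 153, 184, 241 and 307 CPM in BAT DTR+. In SAT it was 59.4 to 80.9 CPM in DTR- and 132 to 144 CPM in DTR+ libraries. It was lower in BAT than in SAT in DTR- mice and higher in BAT in DTR+ mice, without overlap in either genotype, and its interaction was 1.60 ± 0.26 (adjusted p = 0.0024). Nlrc5, the transactivator of MHC class I genes, had 3.57 to 6.40 CPM in BAT DTR-, 29.2 to 45.6 in BAT DTR+, 21.8 to 40.9 in SAT DTR- and 39.5 to 62.2 in SAT DTR+, with an interaction of 1.88 ± 0.31 (adjusted p = 0.0027). Gbp3, a guanylate-binding protein that attacks intracellular pathogens, had 32.8 to 40.0 CPM in BAT DTR- and 127 to 281 in BAT DTR+, against 48.7 to 62.2 and 93.0 to 145 CPM in SAT. Its interaction was 1.40 ± 0.27 (adjusted p = 0.0072), and that of its neighbour Gbp7 was 1.39 ± 0.25 (adjusted p = 0.0052). Guanylate-binding proteins are near copies of each other, so the split of reads between them is uncertain. The list count of 11 fell to 7 without BAT DTR- replicate 1 or 2.

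Among MHC class I genes, 6 of 16 were called positive and 0 negative, and the median was 0.70 with all 16 above 0. Psmb8, a subunit of the immunoproteasome that cuts peptides for presentation, had 45.1 to 68.0 CPM in BAT DTR-, 171 to 352 in BAT DTR+, 178 to 241 in SAT DTR- and 339 to 454 in SAT DTR+. Its interaction was 1.47 ± 0.27 (adjusted p = 0.0065). The partner subunits Psmb9 and Psmb10 had interactions of 1.19 ± 0.25 (adjusted p = 0.011) and 0.89 ± 0.21 (adjusted p = 0.020). B2m, the light chain of class I molecules, had 0.86 ± 0.17 (adjusted p = 0.0065) from means of 642 and 1388 CPM in BAT and 3023 and 3599 CPM in SAT. Leaving out BAT DTR+ replicate 1 raised the list count to 10. When all whole-tissue libraries of the series shared 1 estimate of the spread, the list had 0 calls and the interferon gamma list 3. In that fit the calls of Gbp3, Gbp7, Psmb8, Psmb9, Psmb10 and B2m were lost (adjusted p 0.18 to 0.37). MHC class II genes had 1 positive call of 9 (all genes tested, 3.06%), Ctss, a protease that trims the invariant chain (3.44 ± 0.79, adjusted p = 0.032), and a median of 0.89. Leaving out 1 of 12 libraries ended the Ctss call, with adjusted p up to 0.073 (without BAT DTR- replicate 2), and leaving out BAT DTR- replicate 3, BAT DTR+ replicate 1 or SAT DTR- replicate 3 raised the class II count, to 4 at most.

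The interferon-stimulated response element was searched for in promoters. In the 250 bases before a RefSeq transcription start (build GRCm38.p6), the letters TTTC, any 2 bases and TTTC were found on either strand for 35 of the 328 positive genes with such a window (10.7%), for 2 of 118 negative genes (1.69%) and for 3.37% of the 10292 tested genes with a window. Of all 32851 windows in the table, 2.98% held it. Among called type I interferon genes it was found in 7 of 15, and among called interferon gamma genes in 7 of 9. Among called pan-leukocyte genes it was found in 0 of 16. Beside the 3.37% of tested genes, 16 genes are too few to read a lack of it. Among the members not called it was found in 2 of 7, 4 of 9 and 1 of 7 genes of these lists. The STAT-binding element, TTC, any 3 bases and GAA, which reads the same on both strands, was found for 11.3% of positive, 6.78% of negative and 7.12% of tested genes. These counts describe letters in a window and carry no test. The stretches around the match are printed for an antiviral gene, a guanylate-binding protein gene and a chemokine gene of the groups described here, on the strand of the gene, with the matched letters in capitals (for Cxcl10 on the opposite strand, and for Gbp3 as overlapping matches). Their positions are chr12:26456538-26456597 (minus strand), chr3:142559974-142560039 (plus strand) and chr5:92349068-92349127 (minus strand).
Rsad2: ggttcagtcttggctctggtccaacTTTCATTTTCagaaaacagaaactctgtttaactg
Gbp3: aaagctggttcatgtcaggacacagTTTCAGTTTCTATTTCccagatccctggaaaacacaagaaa
Cxcl10: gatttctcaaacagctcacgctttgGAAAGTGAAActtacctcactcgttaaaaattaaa

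Genes of the pan-leukocyte list, not all of them shared by every leukocyte, were called in one direction: 23 of 30 positive and 0 negative. All 30 lay above 0, and the median was 2.33. Their summed level was 194 to 386 CPM in BAT DTR-, 601 to 1350 in BAT DTR+, 1518 to 1932 in SAT DTR- and 1233 to 1734 in SAT DTR+. BAT DTR+ libraries overlapped those of SAT DTR+ at their upper end, and BAT DTR- libraries lay below all others. Lcp1, the actin-bundling protein L-plastin of blood cells (chromosome 14, 75131101 to 75230842), had 16.8, 17.1, 32.1 and 14.4 CPM in BAT DTR- and 79.9, 178, 132 and 112 CPM in BAT DTR+. The SAT levels were 131, 119, 150 and 158 CPM in DTR- and 102, 122, 122 and 160 CPM in DTR+ libraries, so the SAT groups overlapped. The interaction was 2.77 ± 0.35 (adjusted p = 0.0011). Cd53, a tetraspanin of leukocytes (chromosome 3, 106759921 to 106790149), had 5.53, 6.12, 10.5 and 5.47 CPM in BAT DTR- and 19.2, 45.3, 61.7 and 38.4 CPM in BAT DTR+. In SAT it stood at 62.4, 64.3, 68.2 and 83.8 CPM in DTR- and at 50.0, 49.9, 46.3 and 60.5 CPM in DTR+, where each DTR+ value lay below each DTR- value. Its interaction was 2.99 ± 0.38 (adjusted p = 0.00068). Vav1, the exchange factor downstream of antigen receptors (2.85 ± 0.42, adjusted p = 0.0013), and Cd48, a ligand of the natural killer receptor 2B4 (3.24 ± 0.47, adjusted p = 0.0014), had interactions of like size. The list count stayed between 17 and 26 with any 1 library left out. In BAT DTR- replicate 3 the summed level of 386 CPM was the highest of its group, and its part in the result was not tested beyond that.

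Monocyte and macrophage genes had 7 positive calls and 1 negative among 25, with a median of 2.29. Ccr2, the chemokine receptor that brings monocytes out of the blood, had 3.57 to 6.40 CPM in BAT DTR-, 9.42 to 19.1 in BAT DTR+, 17.5 to 74.0 in SAT DTR- and 25.9 to 37.8 in SAT DTR+ (2.29 ± 0.48, adjusted p = 0.014). Mmp12, the elastase of activated macrophages, had 0.178, 0.742, 4.21 and 0.684 CPM in BAT DTR- and 38.0, 110, 76.6 and 50.4 CPM in BAT DTR+. In SAT it ranged from 4.66 to 40.2 CPM in DTR- and from 11.7 to 24.5 CPM in DTR+ libraries, and the interaction was 5.73 ± 1.12 (adjusted p = 0.015). The size of this interaction rested on few counts in BAT DTR-. Lyz2 (2.42 ± 0.52, adjusted p = 0.024), the lysozyme of myeloid cells, and Plac8 (3.14 ± 0.69, adjusted p = 0.021), a marker of inflammatory monocytes, were also positive. Among the 17 members not called were Mrc1 (0.59), C1qa (0.31), C1qb (1.21), C1qc (0.37) and Lyve1 (-0.39). The negative call, which rested on few counts in BAT DTR+, was Cd163, the haemoglobin scavenger receptor of resident macrophages. It had 7.67, 5.19, 3.90 and 4.79 CPM in BAT DTR- and 2.27, 0.970, 1.02 and 2.23 CPM in BAT DTR+, against 33.6 to 73.6 and 46.0 to 73.7 CPM in SAT, with an interaction of -1.84 ± 0.44 (adjusted p = 0.024). In SAT DTR- replicate 3 the whole list summed to 1368 CPM, against 3221 to 3584 in the other 3 libraries of that group. Without that library the list had 15 positive calls, and without BAT DTR- replicate 3 also more than 1.5 times the 7, while without BAT DTR- replicate 2 or 4, BAT DTR+ replicate 2, SAT DTR- replicate 4 or SAT DTR+ replicate 3 it had fewer, down to 2 without BAT DTR- replicate 2. The Cd163 call was lost without BAT DTR- replicate 1 or 2 or BAT DTR+ replicate 2 or 3 (adjusted p 0.052 to 0.071), that of Lyz2 without BAT DTR- replicate 2, BAT DTR+ replicate 2, SAT DTR- replicate 4 or SAT DTR+ replicate 3 (0.050 to 0.053), and that of Plac8 without BAT DTR- replicate 1, 2 or 4 (0.051 to 0.057). With limma voom and quality weights the calls of Mmp12 (adjusted p = 0.11), Ccr2 (0.069), Plac8 (0.14) and Cd163 (0.18) were lost, and with all whole-tissue libraries that of Cd163 (0.13).

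T and natural killer cell genes had a high median, 2.49 over 19 genes, but only 3 positive calls (all genes tested, 3.06%): Cd3g and Cd2, which act at the T cell receptor and in T cell adhesion, and Il2rb, the shared chain of the IL-2 and IL-15 receptors. Their summed level was 13.4 to 20.8 CPM in BAT DTR-, 50.6 to 119 in BAT DTR+ and 110 to 126 in SAT DTR+. In SAT DTR- it was 55.4, 72.1 and 72.7 CPM in 3 libraries and 358 CPM in replicate 3. Il2rb had an interaction of 2.25 ± 0.57 (adjusted p = 0.030), Cd2 of 3.52 ± 0.94 (adjusted p = 0.039) and Cd3g of 4.86 ± 1.30 (adjusted p = 0.041). Without SAT DTR- replicate 3, Cd2 had 2.22 (adjusted p = 0.097) and Cd3g 2.87 (adjusted p = 0.12). The list had 0 calls without BAT DTR- replicate 4, BAT DTR+ replicate 3 or 4, or SAT DTR+ replicate 1, 2 or 3. It had 1 without BAT DTR- replicate 1 or 2, BAT DTR+ replicate 2 or SAT DTR+ replicate 4, and 5 without BAT DTR- replicate 3 or SAT DTR- replicate 1 or 2. The Il2rb call was lost in 6 of the 16 fits that left out a library (adjusted p up to 0.069). Genes of naive T cells and lymph nodes (6 tested), of B and plasma cells (9), of Treg cells (6) and of neutrophils (5) had 0 calls each in edgeR. Leaving out BAT DTR- replicate 3 gave the naive T cell list 1 call, and leaving out SAT DTR+ replicate 1 gave the B cell list 1. The naive T cell list had a median of 4.16 with all libraries, and its median ranged from 0.58 to 4.53 with 1 library left out, so it rests on SAT DTR- replicate 3. The dendritic cell list had 1 positive call of 7 (all genes tested, 3.06%), Itgax, the integrin CD11c (4.22 ± 0.87, adjusted p = 0.0094), and 2 without BAT DTR- replicate 3. With all whole-tissue libraries in 1 fit the adjusted p of Itgax was 0.051, of Il2rb 0.090 and of Cd2 0.0504, and with limma voom those of Il2rb, Cd2 and Cd3g were 0.054, 0.092 and 0.11, so these calls were lost there.

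**Figure D3:**
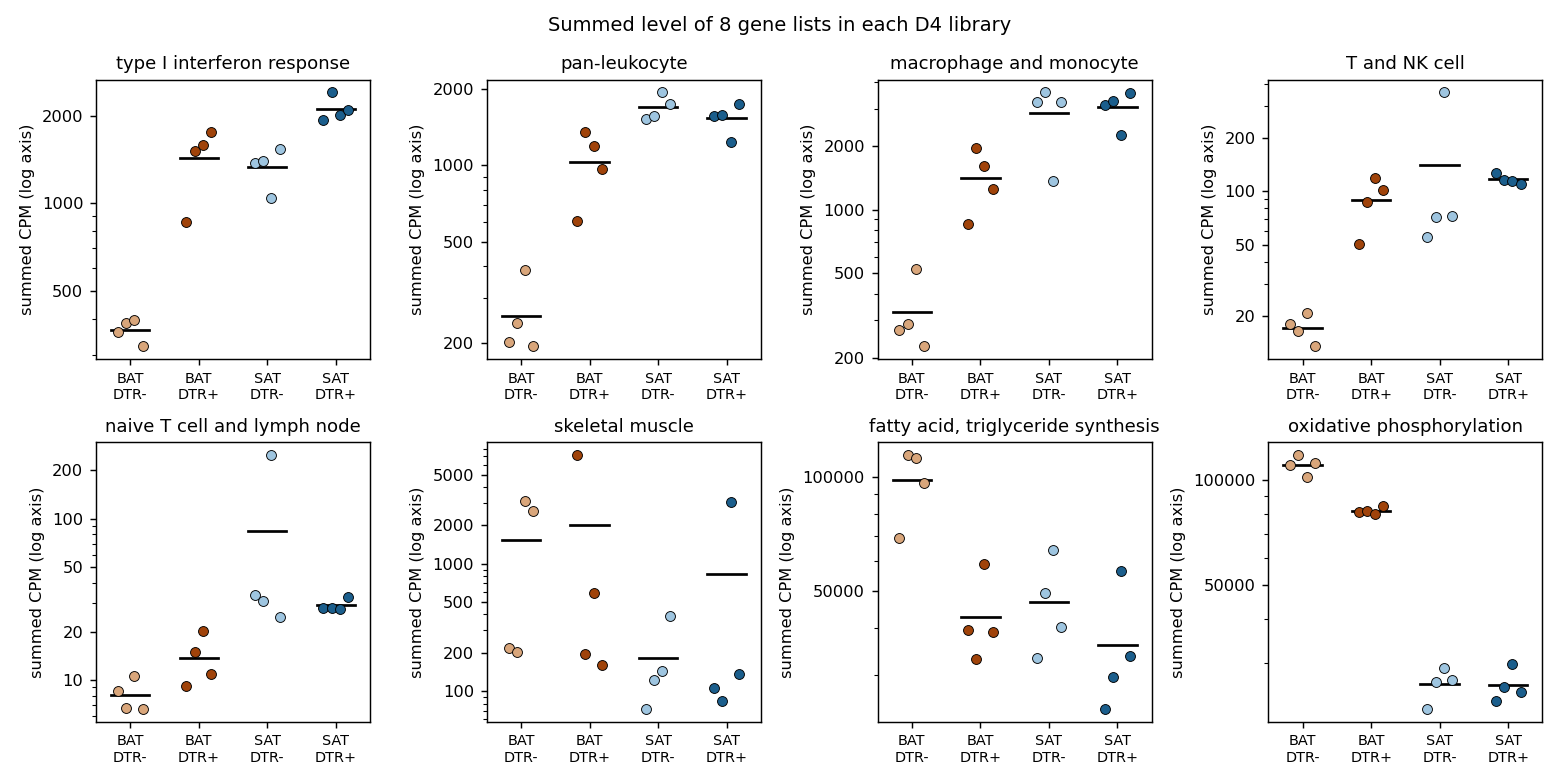
Summed CPM of 8 gene lists on a log axis, with 1 point per library, 4 libraries per group, and a bar at the group mean. Pan-leukocyte sums run from 194 to 386 CPM in BAT DTR- and from 601 to 1350 in BAT DTR+; a single SAT DTR- library reaches 249 CPM for naive T cell genes and single libraries carry the muscle genes.

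Chemokines had 6 positive calls of 19 and 0 negative, with a median of 1.96. Ccl2, the ligand of Ccr2 (chromosome 11, 82035571 to 82037453), had 0.892, 1.11, 4.84 and 0.456 CPM in BAT DTR- and 20.9, 53.0, 118 and 47.9 CPM in BAT DTR+. In SAT it had 16.7, 17.4, 9.11 and 36.4 CPM in DTR- and 15.7, 24.6, 29.6 and 33.1 CPM in DTR+, where the groups overlapped. The interaction was 4.55 ± 0.90 (adjusted p = 0.015), and its size rested on few counts in BAT DTR-. Cx3cl1, the membrane-bound chemokine fractalkine, was already more abundant in BAT on average, with 8.74, 10.6, 4.68 and 6.61 CPM in DTR- and 26.9, 32.3, 48.0 and 57.3 CPM in DTR+ libraries. In SAT it stood at 2.81 to 7.75 CPM in DTR- and at 1.76 to 5.25 CPM in DTR+, and its interaction was 3.17 ± 0.52 (adjusted p = 0.0027). Cxcl10, which draws CXCR3-bearing T cells and is induced by interferons, had 3.56 ± 0.85 (adjusted p = 0.027), and Ccl9, a chemokine of myeloid cells, 2.60 ± 0.58 (adjusted p = 0.025). The Cxcl10 call was lost without BAT DTR- replicate 1, 2 or 4, SAT DTR- replicate 4 or SAT DTR+ replicate 2 or 3 (adjusted p 0.052 to 0.067), and the Ccl9 call without BAT DTR- replicate 2 or 4, BAT DTR+ replicate 2 or SAT DTR+ replicate 3 (0.053 to 0.057). With limma voom and quality weights the calls of Ccl2 (adjusted p = 0.097), Cxcl10 (0.33) and Ccl9 (0.071) were lost, and the list had 1. The list count fell to 2 or 3 when BAT DTR- replicate 1, 2 or 4, BAT DTR+ replicate 2, SAT DTR- replicate 4 or SAT DTR+ replicate 2 or 3 was left out.

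Acute-phase genes and their cytokine pathway had 7 positive calls of 13 and 0 negative, with a median of 1.28. Hp, which encodes haptoglobin and is abundant in fat, had 2772, 1973, 1990 and 1740 CPM in BAT DTR- and 4588, 6538, 11550 and 8093 CPM in BAT DTR+. SAT libraries held 5632, 5403, 3642 and 4819 CPM in DTR- and 5055, 4758, 3849 and 3332 CPM in DTR+, where the groups overlapped, and the interaction was 2.06 ± 0.34 (adjusted p = 0.0043). Socs3, the feedback inhibitor of STAT3 signalling, had 2.51 to 3.12 CPM in BAT DTR- and 11.5 to 23.5 CPM in BAT DTR+, against 9.94 to 14.7 and 8.17 to 17.0 CPM in SAT (2.61 ± 0.39, adjusted p = 0.0015). Osmr, the receptor chain for oncostatin M (2.19 ± 0.33, adjusted p = 0.0016), and Cp, the copper carrier ceruloplasmin (0.81 ± 0.17, adjusted p = 0.011), were called positive too. With any 1 library left out, the list had 5 to 7 calls, and with all whole-tissue libraries in 1 fit the Cp call was lost (adjusted p = 0.092).

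Cell cycle genes had 7 positive calls of 28, 0 negative and a median of 1.62, and they kept 7 to 10 calls with any 1 library left out. Ccna2, cyclin A2 of S phase and mitosis, had 0.714, 0.185, 1.25 and 1.14 CPM in BAT DTR- and 9.60, 8.41, 5.72 and 11.1 CPM in BAT DTR+, which reached the 5.09 to 13.4 CPM of the SAT libraries of both genotypes. Its interaction was 3.43 ± 0.57 (adjusted p = 0.0026). The replicative helicase subunits Mcm6 (2.06 ± 0.39, adjusted p = 0.0061) and Mcm3 (1.38 ± 0.27, adjusted p = 0.0077) and the mitotic kinesin Kif11 (5.36 ± 0.95, adjusted p = 0.0040) were positive too. Ccna2 rested on few counts in BAT DTR-, and so did Kif11, with 0 CPM in 2 of the BAT DTR- libraries. Of immediate-early genes, 3 of 18 were called positive (all genes tested, 3.06%): Egr2, a transcription factor of activated myeloid and T cells (3.05 ± 0.58, adjusted p = 0.0063), and the AP-1 subunits Fosl2 (1.16 ± 0.25, adjusted p = 0.014) and Junb (2.00 ± 0.45, adjusted p = 0.024). The Junb call was lost without BAT DTR- replicate 4, SAT DTR- replicate 4 or SAT DTR+ replicate 3 (adjusted p 0.052 to 0.053). With all whole-tissue libraries in 1 fit the calls of Egr2 (adjusted p = 0.12) and Mcm3 (0.061) were lost.

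The integrated stress response, which raises Atf4 translation when protein synthesis is strained, had 4 positive calls of 16 (all genes tested, 3.06%) and 0 negative ones, with 8 members above 0, 8 below and a median of -0.01. Atf4 itself had 79.2, 78.8, 82.4 and 79.3 CPM in BAT DTR- and 132, 152, 146 and 113 CPM in BAT DTR+, while SAT ranged from 70.1 to 92.4 CPM over both genotypes (0.73 ± 0.15, adjusted p = 0.011). The other called genes were Sdf2l1, an endoplasmic reticulum cochaperone (2.23 ± 0.42, adjusted p = 0.0054), Psat1, an enzyme of serine synthesis (1.02 ± 0.21, adjusted p = 0.010), and Ddit3, the factor CHOP (0.88 ± 0.25, adjusted p = 0.046). The Ddit3 call was lost when 1 of 11 libraries was left out, with adjusted p up to 0.10 (without SAT DTR- replicate 4). With all whole-tissue libraries in 1 fit it was lost too (0.052), as was that of Psat1 (0.097).

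Fibroblast and matrix genes had 6 positive calls of 19, 0 negative and a median of 0.56. Col6a1, a chain of the microfibrillar collagen VI around adipocytes, had 98.2 to 133 CPM in BAT DTR- and 188 to 214 CPM in BAT DTR+. Levels in SAT were 578, 643, 302 and 502 CPM in DTR- and 368, 478, 355 and 445 CPM in DTR+, and the interaction was 1.09 ± 0.24 (adjusted p = 0.016). The other chains Col6a2 (1.09 ± 0.20, adjusted p = 0.0052) and Col6a3 (0.80 ± 0.18, adjusted p = 0.019) were positive as well. Timp1, an inhibitor of matrix metalloproteinases, had 3.94 ± 0.83 (adjusted p = 0.013). The summed level of the list was 9004 CPM in SAT DTR- replicate 3 and 16140 to 20150 CPM in the other 3 libraries of its group. With any 1 library left out the list had 4 to 9 positive calls. The Col6a3 call was lost with all whole-tissue libraries in 1 fit (adjusted p = 0.0504) and the Timp1 call with limma voom (0.076).

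Acsl5, which activates long-chain fatty acids to acyl-CoA, had among the clearest negative interactions (chromosome 19, 55251938 to 55297720). Its level was 489, 620, 616 and 605 CPM in BAT DTR- and 204, 219, 292 and 200 CPM in BAT DTR+. In SAT it was 70.8, 74.2, 79.7 and 74.0 CPM in DTR- and 95.2, 60.8, 84.2 and 74.8 CPM in DTR+, so the SAT groups overlapped while the BAT groups did not. The interaction was -1.43 ± 0.19 (adjusted p = 0.00068), and the call held in all 24 alternatives. Of the 17 acyl-CoA synthetases tested, 2 were called negative (all genes tested, 1.05%) and 0 positive, with 14 members below 0, 3 above and a median of -0.31. The other was Acsm3, a medium-chain enzyme of mitochondria (-0.80 ± 0.22, adjusted p = 0.042), whose call was lost when 1 of 12 libraries was left out, with adjusted p up to 0.10 (without BAT DTR- replicate 4), and with library totals as the only scaling (0.20).

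Aatk, a membrane-anchored kinase, had 62.8, 75.8, 76.2 and 63.8 CPM in BAT DTR- and 22.9, 23.1, 19.8 and 19.2 CPM in BAT DTR+. SAT had 110, 159, 148 and 99.4 CPM in DTR- and 105, 113, 103 and 108 CPM in DTR+, and the interaction was -1.44 ± 0.19 (adjusted p = 0.00068). Chst12, a sulfotransferase that makes chondroitin 4-sulfate, had 33.2 to 63.8 CPM in BAT DTR- and 19.2 to 28.8 CPM in BAT DTR+, against 74.5 to 95.0 and 78.5 to 118 CPM in SAT (-1.31 ± 0.25, adjusted p = 0.0064). Id1, a target of BMP signalling that blocks differentiation factors, had 67.3 to 104 CPM in BAT DTR- and 50.6 to 55.6 CPM in BAT DTR+. SAT levels were 17.3 to 31.4 CPM in DTR- and 28.1 to 36.3 CPM in DTR+ (-1.09 ± 0.24, adjusted p = 0.014). With library totals as the only scaling, the interaction of Id1 was -0.80 (adjusted p = 0.053).

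Fatty acid and triglyceride synthesis had 3 negative calls of 24 (all genes tested, 1.05%) and 0 positive, a median of -0.84 and 1 member above 0. Agpat2, which adds the second fatty acid to glycerol, had 4184, 5349, 5865 and 4608 CPM in BAT DTR- and 2074, 1807, 2052 and 1719 CPM in BAT DTR+. In SAT it had 1392, 2156, 2668 and 1728 CPM in DTR- and 1352, 1259, 2191 and 1509 CPM in DTR+, where the groups overlapped (-1.05 ± 0.26, adjusted p = 0.032). Lpin1, the phosphatidate phosphatase of the next step, had -0.82 ± 0.20 (adjusted p = 0.026), and Insig1, the sterol-dependent brake on SREBP processing, -1.21 ± 0.32 (adjusted p = 0.047). Acly and Fasn, which make the cytosolic acetyl-CoA and the fatty acid chain and were picked after their values were seen, did not pass in the main fit. Their interactions were -1.82 ± 0.83 (adjusted p = 0.27) and -1.36 ± 0.50 (adjusted p = 0.15). Each was called in 1 of the 24 alternatives, the replicate block that pairs same-numbered libraries of BAT and SAT (adjusted p = 0.00050 and 0.00078). Fasn varied widely within BAT, from 10190 to 19160 CPM in DTR- and from 3456 to 8825 CPM in DTR+ libraries. The list had 0 calls without BAT DTR- replicate 2 or 4, BAT DTR+ replicate 3, SAT DTR- replicate 4 or SAT DTR+ replicate 3 or 4, 1 without BAT DTR- replicate 3 or BAT DTR+ replicate 2 or 4, and 0 with library totals as the only scaling. Single calls were lost in 10 of the 16 such fits for Agpat2, 7 for Lpin1 and 14 for Insig1.

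Fatty acid oxidation had 2 negative calls of 22 (all genes tested, 1.05%) and 0 positive, with a median of -0.35. They were Cpt2, the inner-membrane carnitine palmitoyltransferase (-0.58 ± 0.13, adjusted p = 0.016), and Slc25a20, the carrier that exchanges carnitine for acylcarnitine (-0.65 ± 0.17, adjusted p = 0.037). Cpt2 had 936 to 1189 CPM in BAT DTR- and 620 to 652 CPM in BAT DTR+, against 290 to 318 and 250 to 303 CPM in SAT. The Cpt2 call was lost without BAT DTR- replicate 1 or 2 (adjusted p 0.053 and 0.056), and the Slc25a20 call when 1 of 12 libraries was left out, with adjusted p up to 0.10 (without BAT DTR+ replicate 3). With library totals as the only scaling neither Cpt2 (0.15) nor Slc25a20 (0.23) was called. Nuclear genes of oxidative phosphorylation had 8 negative calls of 74 (all genes tested, 1.05%) and 0 positive, a median of -0.43 and 1 member above 0. The called genes included the complex I subunits Ndufv3 (-0.66 ± 0.15, adjusted p = 0.016), Ndufa8 (-0.49 ± 0.12, adjusted p = 0.032) and Ndufa6 (-0.57 ± 0.15, adjusted p = 0.036) and the complex III subunit Uqcrh (-0.50 ± 0.14, adjusted p = 0.040). The summed level of the list was 102000 to 117900 CPM in BAT DTR- and 80050 to 84570 CPM in BAT DTR+, and 22170 to 29090 and 23450 to 29840 CPM in SAT. Its count of calls was 0 without BAT DTR- replicate 1 or BAT DTR+ replicate 3, 10 without BAT DTR- replicate 3 or SAT DTR- replicate 3, 1 to 3 without any other library, and 0 with library totals as the only scaling, under which the median was -0.14.

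Brown fat identity genes as a list showed no common direction, with 1 negative call of 27 (all genes tested, 1.05%) and a median of 0.05. In the D3 libraries described below the median was -0.49. Their summed level was 20940 to 24050 CPM in BAT DTR- and 13880 to 15730 CPM in BAT DTR+, without overlap. In SAT it was 628, 654, 1262 and 1079 CPM in DTR- and 625 to 791 CPM in DTR+. The call was Slc29a1, a nucleoside transporter of brown adipocytes (-1.01 ± 0.21, adjusted p = 0.010), and without SAT DTR- replicate 3 there were 2. With library totals as the only scaling the Slc29a1 call was lost (adjusted p = 0.0502). Ucp1 had 6916, 6072, 6294 and 5056 CPM in BAT DTR- and 2624, 2696, 2848 and 3067 CPM in BAT DTR+, without overlap. In SAT it had 2.04, 3.24, 70.8 and 38.2 CPM in DTR- and 2.48, 0.841, 5.79 and 2.31 CPM in DTR+, so that replicates 3 and 4 alone stood above 6 CPM. Its interaction of 2.18 ± 1.16 did not pass (adjusted p = 0.35), and its positive sign comes with a fall of the mean in both depots. Adipocyte genes had 1 negative call of 16 (all genes tested, 1.05%), the insulin-responsive glucose transporter Slc2a4 (-0.73 ± 0.20, adjusted p = 0.042), and a median of -0.16. The Slc2a4 call was lost when 1 of 12 libraries was left out, with adjusted p up to 0.11 (without BAT DTR- replicate 2), and with library totals as the only scaling (0.16). Lipolysis genes (16 tested), mitochondrially encoded genes (13), endothelial genes (13), Schwann cell genes (8), muscle genes (15), epithelial genes (3) and red cell genes (5) had 0 calls each in edgeR. Lipolysis had 1 without SAT DTR+ replicate 1 and Schwann cell genes had 1 without SAT DTR- replicate 3. An abundant lipolysis member, the triglyceride lipase Pnpla2, had an interaction of -0.41 ± 0.13 (adjusted p = 0.093) and was called in DESeq2 (adjusted p = 0.030). The median of the muscle genes was -2.14 with all libraries and ran from -5.29 to 1.37 with 1 library left out.

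**Figure D4:**
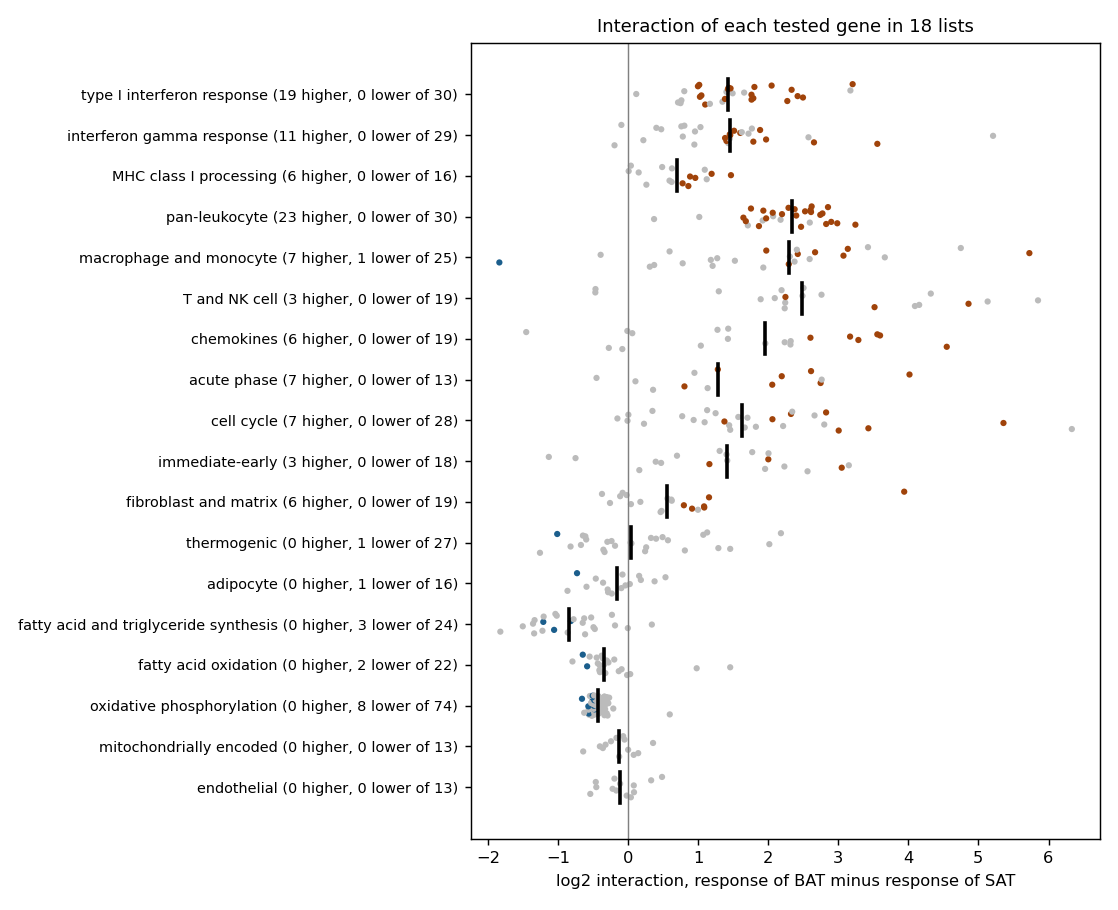
Each point is a tested gene of 1 of 18 lists, placed on the x axis by its log2 interaction (the response of BAT minus that of SAT), coloured when called and grey otherwise, with a bar at the list median. The medians are 2.33 for pan-leukocyte, 1.43 for type I interferon and 1.45 for interferon gamma genes, and -0.84 for fatty acid and triglyceride synthesis.

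Outside the lists, the genes with the largest positive interactions included further immune genes. Lat2, an adaptor of B cell, mast cell and monocyte receptors, had 0.556 to 1.56 CPM in BAT DTR- and 7.15 to 18.4 CPM in BAT DTR+, against 6.84 to 11.1 and 4.75 to 9.01 CPM in SAT (4.03 ± 0.52, adjusted p = 0.00068). Icosl, the ligand of the T cell costimulator ICOS, had 0.178 to 0.912 CPM in BAT DTR- and 5.98 to 13.6 CPM in BAT DTR+, and 1.72 to 9.78 and 2.75 to 4.24 CPM in SAT (4.67 ± 0.75, adjusted p = 0.0023). Rgs1, a brake on chemokine receptor signalling in lymphocytes, had an interaction of 5.24 ± 0.99 (adjusted p = 0.0061) from few counts, with 0 in 2 BAT DTR- libraries. Lat2 and Icosl had few counts in BAT DTR- as well.

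The same contrast was measured in 12 other libraries, whose titles carry D3 and PBS and whose strain, age, sex and DT label are those of D4, with 3 libraries per depot and genotype. There, 9 of 13325 genes passed (0.0675%), and all 9 had been called in D4 in the same direction. The 8 positive ones (0.06% of those tested) included the chemokine Ccl2 (3.06 ± 0.43 in D3, 4.55 ± 0.90 in D4), the hyaluronan receptor Cd44 (2.32 ± 0.34 and 2.68 ± 0.40), Egr2 (3.49 ± 0.59 and 3.05 ± 0.58), Gbp3 (1.25 ± 0.23 and 1.40 ± 0.27), the interferon factor Irf9 (1.31 ± 0.24 and 1.05 ± 0.20), Lcp1 (1.48 ± 0.25 and 2.77 ± 0.35) and the interferon-induced chaperone Rtp4 (1.62 ± 0.23 and 1.80 ± 0.32). The other 1 (0.0075%) was negative.

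Among the D4 calls, 383 of the 406 positive genes tested in D3 were positive there (94.3%, against 50.1% of all genes), with a median of 0.86 in D3 and 1.84 in D4. Of the negative genes, 136 of 142 (95.8%) were negative in D3, with medians of -0.34 and -0.69. The genes were chosen on their D4 values, which can enlarge the D4 medians. A difference in size between the experiments is therefore not read from these medians. Irf7 had 1.04 ± 0.27 (adjusted p = 0.14), Cd53 1.76 ± 0.55 (adjusted p = 0.26) and Acsl5 -1.59 ± 0.34 (adjusted p = 0.10) in D3. The difference between D4 and D3 was tested itself, and 0 of 14449 genes passed in edgeR, with 666 at an unadjusted p under 0.05 and 0 in DESeq2. With no filter on low counts 62 genes passed. A p above the threshold does not show that the experiments gave the same values.

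**Figure D5:**
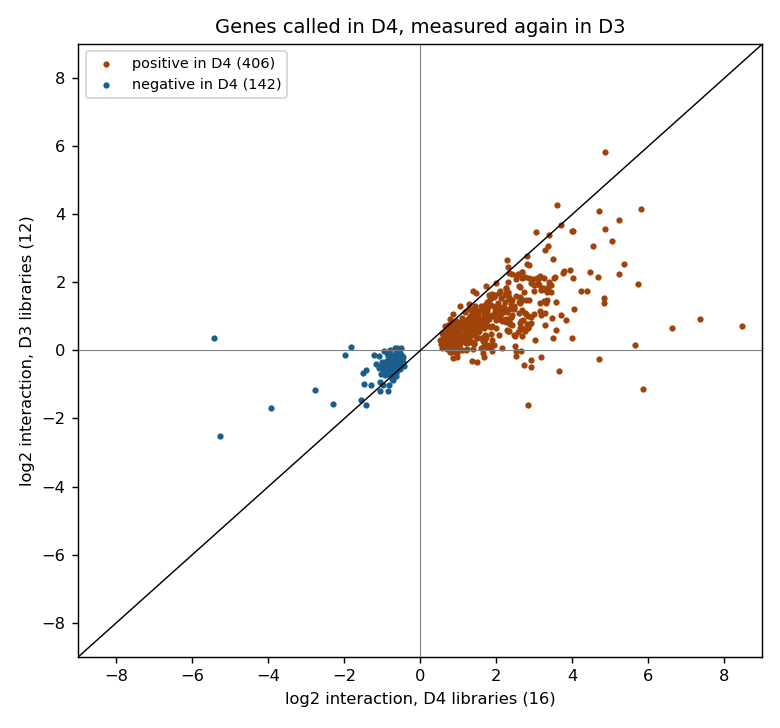
Each point is a gene called in D4, with its log2 interaction in the 16 D4 libraries on the x axis and in the 12 D3 libraries on the y axis; the line marks equal values. Of 406 positive genes 383 lie above 0 on the y axis, most of them below the line, and 136 of 142 negative genes lie below 0. The genes were chosen on their D4 values, so no difference in size is read from their place beside the line.

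Another pair of groups touches the same genes from independent libraries: DTR+ BAT given DT with an antibody against interferon gamma or with an isotype control (3 libraries each). This comparison was added after the D4 values were seen. It holds no SAT and no DTR- libraries, so it does not measure the difference between depots. Whether interferon gamma has a part in that difference was not tested. Of the 398 D4-positive genes tested there, 33 were lower with the antibody and 0 higher, against 61 lower (0.508%) and 4 higher (0.0333%) of all 12017 genes. Their median log2 change with the antibody was -0.33. Of the 139 D4-negative genes 0 were lower and 1 was higher, and their median was 0.16. Of the 11380 genes with no D4 call, 28 were lower and 3 higher, with a median of 0.02. At an unadjusted p under 0.05, 123 D4-positive genes were lower and 4 higher, 0 D4-negative genes lower and 25 higher, and 426 genes with no call lower and 401 higher.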

How the data were processed

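RNA of whole tissue (2 ng per library) was made into libraries with Smart-seq2 and Nextera XT, per the labels' protocols. The deposited values are whole-number counts per gene, which the authors made with STAR 2.7.3a on mm10 and with featureCounts, according to the submitters' processing notes. For the annotation release, strandedness and multiply matching reads, settings were not given in the sources used here, and overlapping and near-identical genes are therefore uncertain. Counts of PCR-amplified reads without molecular identifiers are not independent molecules, and limits from counts of 0 cover counting error only.

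The 16 libraries (3616464 to 9011136 counts over 55011 genes) went into edgeR 4.0.16 (R 4.3.3): filterByExpr, TMM, the robust quasi-likelihood fit with 1 mean per group, and the F test of the interaction, adjusted by Benjamini-Hochberg over all 13502 genes tested at 0.05. Each SE equals the log2 interaction, unsigned, divided by the square root of F. The fitted values use a prior count of 0.125. The D3 libraries, and D4 against D3, were fitted in the same way. The members and the gene lists were chosen with earlier results of these data known, so lists are given as counts and medians with no test. Always named were Irf7, Lcp1, Cd53, Acsl5, Foxp3 and Ucp1. To these come the 15 positive and 15 negative genes with the largest interactions among those called, with at least 5 CPM in a group and non-overlapping responses per library (ribosomal, predicted and receptor-segment genes were skipped). Every list contributed at most 4 called genes with the lowest p, or else its 2 most abundant ones. Where 5 or fewer were called, all could be named. The text gives a part of them, and a few genes go unreported here. Gene positions are those of GENCODE M21.

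Replicates were checked for copies, and all 24 pairs within the 4 groups differed by more than counting noise (chi-square over its degrees of freedom, 7.74 to 37.5). The fit was tested on simulated counts with known changes, placed in genes that were not rare. With the D4 design it recovered 33% of changes of log2 1 and 87% of those of log2 2. With the D3 design it recovered 27% and 77%. Of its calls, 3.23% in D4 and 4.59% in D3 were false. Many changes of log2 1 would thus be missed. Alternatives were DESeq2 1.42.0, limma 3.58.1 voom with quality weights, RLE factors, no filter, library totals only, a replicate block, all whole-tissue libraries in 1 fit, and libraries left out.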

Additional observations from a re-analysis of the deposited data

Results flagged for a closer look

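The test of the difference between depots itself picked out 413 positive and 142 negative genes in D4, and 8 and 1 in D3.

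Of 148 groups of 4 values checked, 17 had 1 library farther from the rest than Dixon's 95% critical value allows, where chance gives about 1 in 20. In BAT DTR- replicate 3, Lcp1 was 32.1 CPM (14.4 to 17.1 in the others), Cd53 10.5 CPM (5.47 to 6.12), Ccl2 4.84 CPM (0.456 to 1.11), Psmb8 68.0 CPM (45.1 to 47.8) and Atf4 82.4 CPM (78.8 to 79.3). In BAT DTR- replicate 1, Zbp1 was 0.892 CPM (2.03 to 2.05 in the others), Vav1 1.07 CPM (2.03 to 2.23) and Acsl5 489 CPM (605 to 620). Rsad2 was 57.9 CPM in SAT DTR+ replicate 2 (39.3 to 42.1 in the others), and Cpt2 was 290 CPM in SAT DTR- replicate 1 (316 to 318).

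Among summed lists, SAT DTR- replicate 3 had 1368 CPM of macrophage and monocyte genes (3221 to 3584 in the others), 358 CPM of T and NK cell genes (55.4 to 72.7) and 249 CPM of naive T cell and lymph node genes (24.6 to 33.8). The last list also stood out in SAT DTR+ replicate 4, at 32.7 CPM (27.7 to 28.1). Muscle genes reached 7111 CPM in BAT DTR+ replicate 1 (161 to 592 in the others) and 3026 CPM in SAT DTR+ replicate 3 (84.0 to 137), and matrix genes were 2742 CPM in BAT DTR+ replicate 3 (3290 to 3293).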

How the results depend on the processing

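Of the 71 called genes named here, 31 kept their call and direction in all 24 alternatives, 40 lost the call in at least 1, and 0 reversed. The D4 count of 555 was 982 in DESeq2 (647 positive, 335 negative), 887 without a filter (708 positive) and 1073 with library totals as the only scaling, added after seeing the data (1053 and 20). With 1 library left out it ran from 309 to 679, the positive count from 251 to 561 and the negative count from 39 to 131. It moved by over 1.5 times without BAT DTR- replicate 2 (309) or 4 (310), BAT DTR+ replicate 2 (327), 3 (343) or 4 (355), SAT DTR- replicate 4 (324) or SAT DTR+ replicate 3 (335). The negative count also did so without BAT DTR- replicate 1 (70), SAT DTR- replicate 1 (69) or SAT DTR+ replicate 1 (88), 2 (87) or 4 (80). Without both SAT libraries numbered 3 it was 521. The D3 count of 9 was 142 in DESeq2, 273 without a filter, 62 with library totals only, and 4 to 63 with 1 library left out: 63 without SAT DTR- replicate 3, 49 without BAT DTR- replicate 3, 17 without BAT DTR+ replicate 3, 14 without SAT DTR+ replicate 1, 4 or 5 without BAT DTR- replicate 2, BAT DTR+ replicate 1 or 2, SAT DTR- replicate 1 or SAT DTR+ replicate 2 or 3. The D4 minus D3 count of 0 was 62 without a filter and 0 with any 1 library left out. The cause of these moves was not tested. Replicate numbers were not taken to pair the libraries: over 8 pairs of same-numbered libraries the correlation of deviations ran from -0.01 to 0.19, 4 were over 0.1, and 4 had their best partner in their own number. The labels do not say whether a number marks the same animal in both depots, and these correlations cannot settle it. With a replicate block the D4 count was 442 (321 and 121), of which 352 were among the 555, and the D3 count 5. That block gave calls for Acly (adjusted p = 0.00050) and Fasn (0.00078) and 13 for fatty acid and triglyceride synthesis, and ended those of Mmp12 (0.070), Ccr2 (0.068), Plac8, Lyz2, Ctss, Ccl9 and the oxidative phosphorylation list. Depth limits the rarest genes, Foxp3 among them.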
